A study of Mus musculus with 24 samples.

Results

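The cytosolic ribosomal protein genes were followed through skeletal stem and progenitor cells sorted from vertebrae and long bones of 10-day-old mice. Members were taken by name, as every gene symbol that starts with Rpl or Rps and a number, together with Rpsa, Rplp0, Rplp1 and Rplp2, leaving out the kinases named Rps6k. This rule found 100 genes among the 21948 genes of the expression table, and it used no measured value. Of these, 31 encode proteins of the small (40S) subunit, 42 proteins of the large (60S) subunit and 3 the acidic P stalk. These 76 genes are called the ribosomal protein pool below. The other members were 7 paralogs of ribosomal protein genes, 15 genes with pseudogene-type names and 2 genes that carry a matching name without being ribosomal proteins, Rps19bp1 and Rpl7l1. Rpl13 was not analysed here.

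Each cell makes its ribosomes from ribosomal RNA and about equal amounts of the ribosomal proteins, so the genes for these proteins are known to be transcribed together and at high levels. Many of their mRNAs begin with a run of pyrimidines, the terminal oligopyrimidine motif, through which growth signalling is known to control their translation. In the mouse skeleton, changes in single members have visible effects, as in the Tail-short mouse, where loss of an Rpl38 copy alters the pattern of vertebrae.

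RNA-seq was done on 6 groups of 4 libraries, all from male mice labelled WT, at postnatal day 10, that the titles call biological replicates. All cells were sorted as CD45-, Ter119-, CD31-, Thy-, 6C3- and CD105-, and as CD200+. From vertebrae (spine), GFP+ and GFP- cells were each split into EMB+ and EMB- cells, and from long bones (femur and tibia), GFP- cells were split into EMB+ and EMB- in the same way. EMB is embigin, a surface glycoprotein, and GFP follows a Zic1-linked Cre, so GFP+ marks a lineage in which the transcription factor gene Zic1 has been active, not cells that necessarily express it at sorting. Vertebral GFP+ and long bone cells therefore differ in lineage mark as well as in site. Strain, the number of animals behind a library and any pooling are not given in the sources used here.

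Values are FPKM, fragments scaled to gene length and to the number of mapped fragments, so levels can be set side by side between genes, but the read depth behind them is unknown. Emb itself stood at 30.1 to 56.5 FPKM in the 12 EMB+ libraries and at 0.24 to 1.32 FPKM in the 12 EMB- libraries. The EMB+ libraries include 4 of vertebral GFP- EMB+ cells whose titles contradict the label on both EMB and GFP. Zic1 read 0 to 0.11 FPKM in these 4 and 0.35 to 2.39 FPKM in the vertebral GFP+ libraries. The sum over 9 cartilage and progenitor markers was 22731 to 55062 FPKM, most of it Col2a1. Cd200, Sox9 and Acan were also high in all libraries, with lowest values of 88.4, 159 and 214 FPKM. Other markers were low in some groups. In vertebral GFP- EMB- cells, mean FPKM was 3.44 for Runx2, 2.41 for Prrx1, 4.81 for Pdgfra and 8.05 for Sp7. Runx2 and Sp7 had means of 38.7 and 64.1 FPKM in vertebral GFP- EMB+ cells. Ptprc, which encodes the excluded CD45, did not exceed 1.80 FPKM. Replicate 4 of the long bone EMB- group stood apart from its 3 partners. Its gene-wise median difference to them was 0.46 to 0.52 on the log2 scale, against 0.21 to 0.27 among those 3, and its summed FPKM was 568495 against 382364 to 454256 in the other 23 libraries. The main results that include it are given with and without it, and those beyond the planned counts of calls were recomputed without it after the data were seen.

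The pool held some of the most abundant mRNAs of these cells. The median pool gene had a mean of 267 FPKM over the 24 libraries, 37.5 times the 7.11 FPKM of the median gene tested, and 71 of 76 pool genes were among the 500 genes with the highest mean FPKM. The pool's share of all FPKM ranged from 3.82% to 7.90% between libraries. Rps29, a zinc-binding protein of the small subunit head, was the highest with a mean of 1155 FPKM, followed by Rpl41 (1045 FPKM), which encodes the smallest of these proteins, Rpl32 (983 FPKM), Rps14 (713 FPKM) and Rpl37a (698 FPKM). The lowest were Rpl5 (52.9 FPKM), Rpl27a (88.3 FPKM), Rpl12 (110 FPKM), Rpl22 (116 FPKM) and Rpl17 (120 FPKM). Rpl5 and Rpl11 proteins, which bind the 5S ribosomal RNA and, when free, the p53 regulator Mdm2, thus came from mRNAs at unequal levels, since Rpl11 had a mean of 153 FPKM. The P stalk genes, whose proteins recruit the elongation factors, were all above the pool median, with Rplp1 at 656 FPKM, Rplp0 at 603 FPKM and Rplp2 at 468 FPKM.

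These per-gene levels carry the uncertainty of near-identical copies. In 75 of the 76 pool genes, at least 1 stretch of 50 bases of the reference transcript also occurred in a transcript of another gene, and in 35 genes this held for over 50% of the stretches, 93.8% in Rpl5. How such reads were assigned is not given in the sources used here. In addition, 20 pool genes overlap a gene on the opposite strand, and the libraries did not mark strand.

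The pool moved as a block from library to library. Over the 24 libraries, the median Pearson correlation between log2 levels of 2 pool genes was 0.95 (2850 pairs, 0.71 to 0.996). It was 0.96 after the group means were removed, so pool genes also moved together among libraries of the same group. All these points share libraries and their scaling. The level of a pool gene had a median SD of 0.44 over the 24 libraries on the log2 scale, and of 0.13 when measured against the pool median of the same library, smaller in 76 of 76 genes. Within groups, the SD of a pool gene had a median of 0.36, against 0.24 over all 11767 genes tested. Pool genes thus varied more between replicates than the median gene, and they did so together. Without replicate 4 of long bone EMB- cells, both median correlations were 0.95, and the median SDs within groups were 0.27 for pool genes and 0.20 for all genes.

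**Figure D1:**
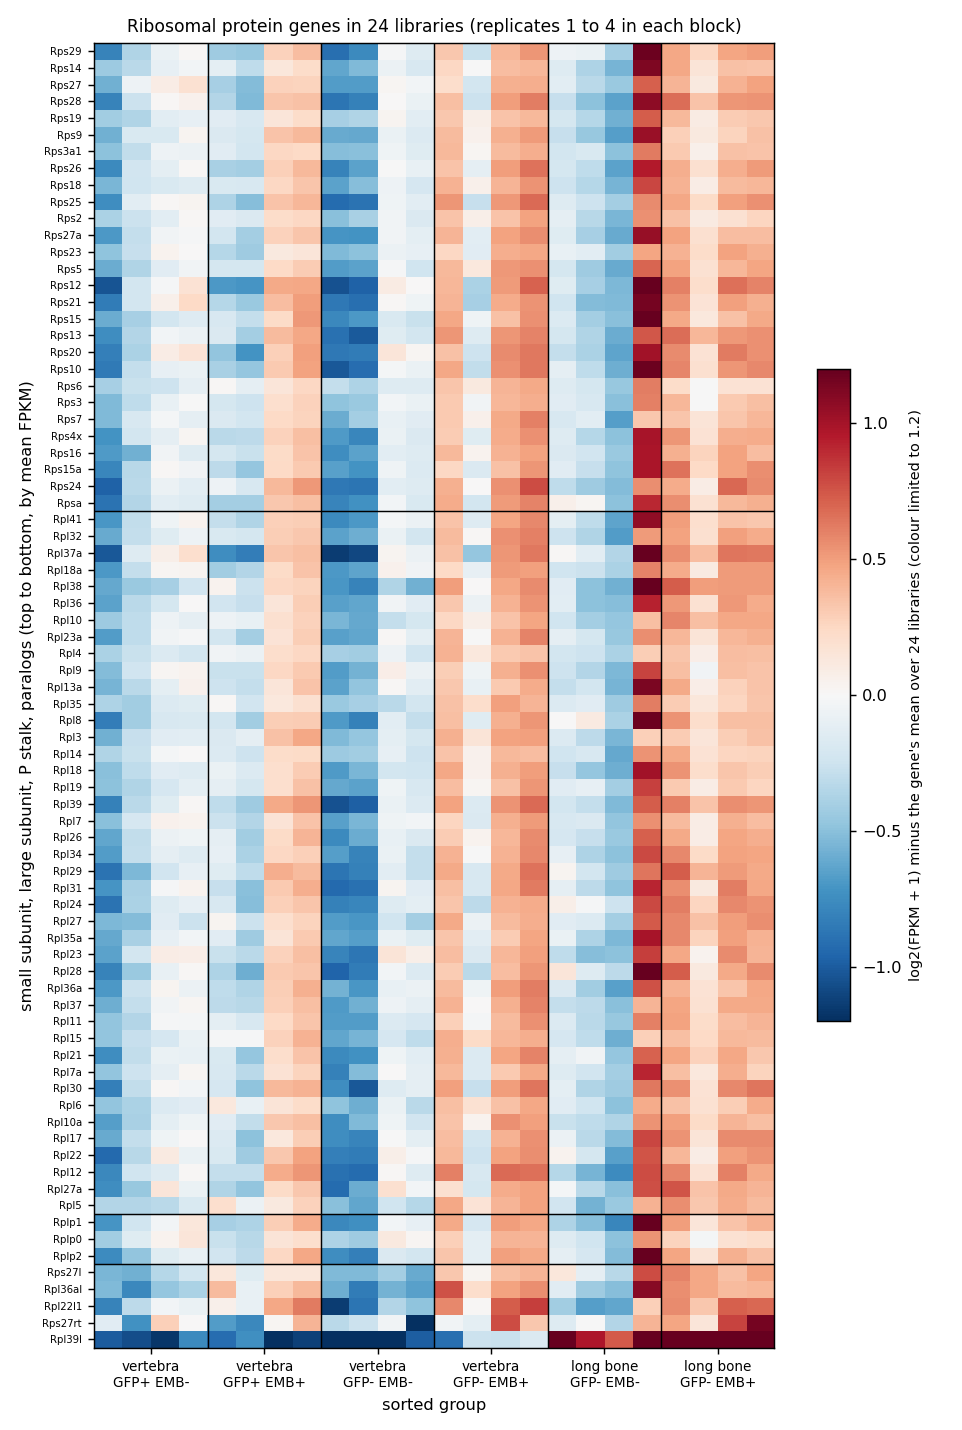
Each row is 1 of 78 tested members (28 small subunit, 42 large subunit, 3 P stalk and 5 paralog genes, sorted by mean FPKM) and each column 1 of 24 libraries; colour is log2(FPKM + 1) minus the gene's mean over all libraries. Whole columns are red or blue, replicate 4 of the long bone EMB- group is the reddest, and the bottom row, Rpl39l, follows the long bone groups instead.

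The pool median, on the log2(FPKM + 1) scale, was 7.36, 7.71, 7.94 and 8.0 in replicates 1 to 4 of the vertebral GFP+ EMB- group, and 7.82, 7.66, 8.28 and 8.39 in the vertebral GFP+ EMB+ group. In vertebral GFP- EMB- cells it was 7.31, 7.35, 7.95 and 7.85, and in vertebral GFP- EMB+ cells 8.40, 7.93, 8.46 and 8.56. In each of these 4 vertebral groups, replicates 3 and 4 were above replicates 1 and 2. The same order was seen in 75, 75, 76 and 57 of the 76 pool genes in that order of the groups. The replicate numbers come from the titles, and nothing in the labels says what libraries with the same number share.

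In long bone, the pool median was 8.52, 8.21, 8.46 and 8.43 in EMB+ cells and 7.81, 7.63, 7.46 and 8.75 in EMB- cells. Replicate 4 of the EMB- cells was thus above all 4 EMB+ libraries, while the other 3 were below all of them. All 76 pool genes were higher in that library than in its 3 partners, and 59 of them had their highest value of all 24 libraries there. The complex I subunit genes of the mitochondrial respiratory chain also stood higher in it, at a median of 7.61 against 6.15 to 6.49 in its partners. Without it, the mean pool median of long bone EMB- cells was 7.63 ± 0.17 (SD, n = 3).

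**Figure D2:**
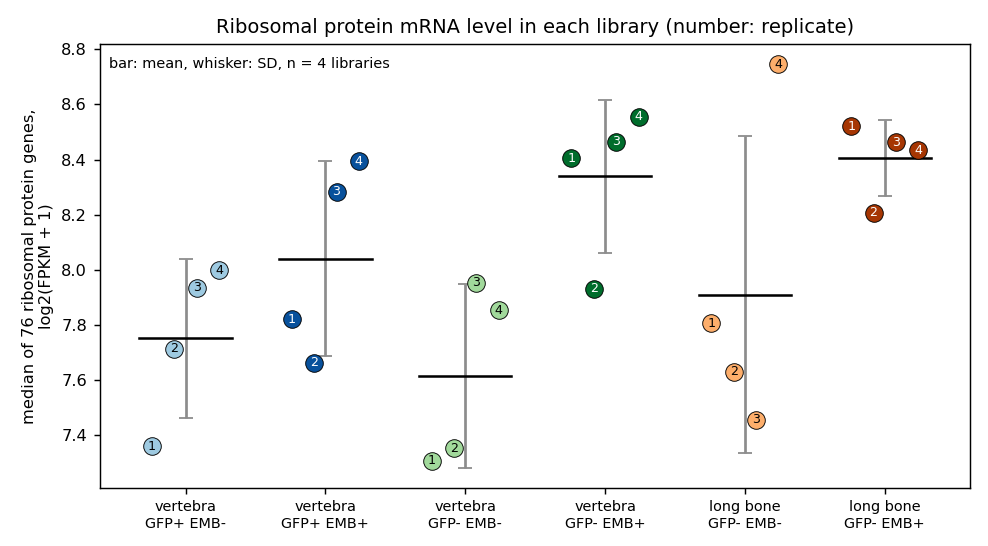
Median level of the 76 pool genes in each library, log2(FPKM + 1), by sorted group; numbers are replicates, black bars the group mean and whiskers the SD of 4 libraries. EMB+ groups have the higher means, the vertebral groups each show replicates 3 and 4 above 1 and 2, and replicate 4 of long bone EMB- cells lies at 8.75, above every other library.

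How much a pool gene varied between replicates went with its length. Across the 76 genes, Spearman's rho between coding length (138 to 1257 bases) and the SD within groups was -0.57, while mean FPKM and SD gave 0.04, as a description over genes that share libraries. These were -0.51 and -0.13 without replicate 4 of long bone EMB- cells. Rps12 (SD 0.59) and Rpl37a (SD 0.57) varied most, and Rpl4 (SD 0.18), the gene with the longest coding sequence, least, and without that library their SDs were 0.49, 0.49 and 0.13. Rps12, a protein of the small subunit, read 120, 212, 245 and 280 FPKM in vertebral GFP+ EMB- replicates 1 to 4, and Rpl4 read 257, 279, 299 and 287 FPKM in the same libraries. The standard error of a comparison differs accordingly, from 0.13 for Rpl4 to 0.37 for Rps12 on the log2 scale, so equal changes pass the test more easily in Rpl4.

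**Figure D3:**
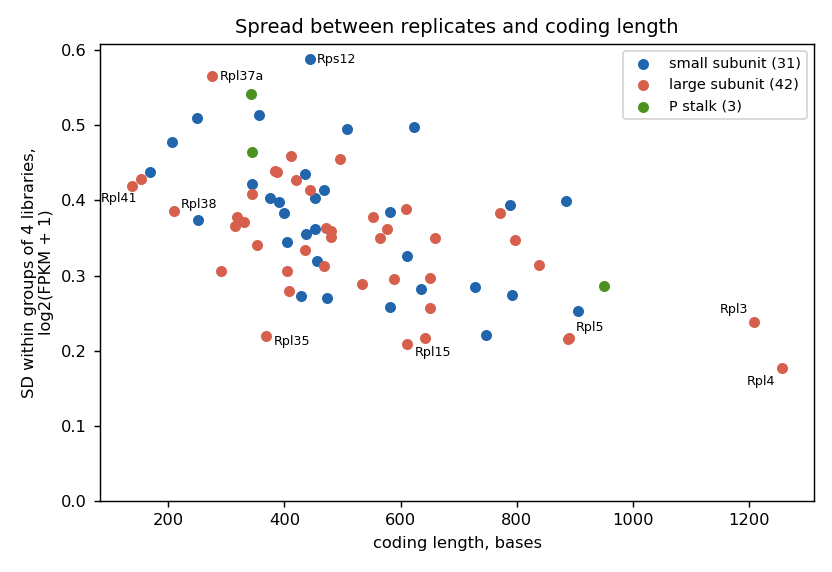
Coding length in bases against the SD within groups of log2(FPKM + 1) for the 76 pool genes, coloured by subunit. Short genes spread over SDs up to 0.59, and the 2 longest, Rpl4 and Rpl3, have SDs of 0.18 and 0.24.

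The starts of the genes were examined because the members move together. RefSeq promoter windows (GRCm38.p6, 250 bases before to 50 after the annotated start) were matched by gene for 56 of the 76 pool genes, 66 windows in all. The windows from 50 bases before to 20 after the start are shown for 4 pool genes at different levels, Rpl38, Rps27, Rps26 and Rpl39, and for the paralogs Rpl39l and Rpl22l1, which the comparisons turn on. Capitals mark the longest pyrimidine run near the start. They lie at chr11:114668530-114668599 (Rpl38, + strand), chr3:90213629-90213698 (Rps27, - strand), chr10:128626487-128626556 (Rps26, - strand), chrX:37085203-37085272 (Rpl39, - strand), chr16:10170178-10170247 (Rpl39l, + strand) and chr3:28805458-28805527 (Rpl22l1, + strand).
Rpl38: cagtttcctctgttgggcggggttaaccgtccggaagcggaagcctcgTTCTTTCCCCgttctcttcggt
Rps27: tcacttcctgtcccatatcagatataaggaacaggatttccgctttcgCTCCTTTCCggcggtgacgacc
Rps26: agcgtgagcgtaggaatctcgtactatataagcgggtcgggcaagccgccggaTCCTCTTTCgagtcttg
Rpl39: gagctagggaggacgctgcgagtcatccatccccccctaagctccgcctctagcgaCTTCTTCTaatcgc
Rpl39l: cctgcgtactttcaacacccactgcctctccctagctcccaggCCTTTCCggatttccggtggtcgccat
Rpl22l1: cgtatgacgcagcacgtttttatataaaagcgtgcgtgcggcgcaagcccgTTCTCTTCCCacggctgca

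A pyrimidine run of 7 or more within 10 bases of the annotated start was found in 31 of 66 pool windows (47.0%), against 19.7% of all 32851 windows. All 6 windows above hold such a run, 10 bases long in Rpl38 and Rpl22l1 and 7 in Rpl39l, so they do not stand for the pool. Other members had shorter runs there, of 3 bases in Rpl5, 4 in Rpl22 and Rps19, and 5 in Rpl36a and the paralog Rpl36al. A C exactly at the start followed by 4 pyrimidines was found in 19.7% of pool windows and in 2.505% of all windows. Of letters searched on both strands over the 300 bases, CCGGAAG (a core of the sites bound by ETS factors) was in 37.9% of pool windows against 8.86% of all, AAGATGGC (the core of the YY1 site) in 10.6% against 2.75%, GGGCGG (an SP1 box) in 60.6% against 35.7%, and TATAAA in 9.09% against 13.6%. These are matches of letters at annotated starts, not measured binding. The last 3 letters of CCGGAAG are the first 3 of AAGATGGC, so 1 stretch can hold both.

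The 5 genes outside the members whose level over the 24 libraries was most like the pool median, among 11681 genes, were Rack1 (r = 0.98), which encodes a scaffold protein of the 40S subunit, Atp5g2 (0.97), a subunit of ATP synthase, Eef1b2 (0.96) and Eef2 (0.96), translation elongation factors, and the predicted gene Gm10076 (0.95). After the group means were removed, these correlations were 0.99, 0.95, 0.96, 0.94 and 0.98.

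The first question of the design is how EMB+ cells differ from EMB- cells. In vertebral GFP- cells, ribosomal protein mRNAs were higher in EMB+ cells. Of the 86 members that passed the filter (at least 1 FPKM in 4 or more libraries), 73 rose and 0 fell at an adjusted p below 0.05 by limma, against a background of 41.7% of all genes tested that rose and 10.6% that fell. The members' median log2 difference was 0.72 (1.64-fold), beside 0.30 over all genes tested, so 0.41 above the general shift. Of the pool, 65 of 76 genes rose, 26 of 31 in the small subunit, 38 of 42 in the large subunit and 1 of 3 in the P stalk, and no pool gene had a difference below 0.41. In 40 of 86 members, every EMB+ library was above every EMB- library, where the background was 41% of genes.

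Pairing by replicate number gave pool differences of 1.10, 0.58, 0.51 and 0.70 on the log2 scale in vertebral GFP- cells, with all 76 pool genes higher in the EMB+ library of each pair. The general median of the same pairs was 0.21, 0.21, 0.31 and 0.27. The difference was thus seen at each number, in libraries with a low pool as in those with a high pool.

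Rpl22l1, the paralog of Rpl22, changed most. It read 63.1, 75.7, 110 and 100 FPKM in the vertebral GFP- EMB- libraries and 210, 142, 232 and 249 FPKM in the EMB+ libraries. The groups did not overlap, and the log2 difference was 1.25 (SE 0.22, adjusted p = 5.5e-05). Rpl36al, the autosomal paralog of the X-linked Rpl36a, read 99.03, 83.3, 101 and 95.1 FPKM in EMB- and 254, 173.3, 210 and 220 FPKM in EMB+ cells, again without overlap (log2 difference 1.16, SE 0.22, adjusted p = 0.00011). Reads of Rpl36al cannot be told apart by strand or place from Gm49383, a coding model that overlaps it on the same strand.

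Rpl38, the large subunit protein named above for its effect on the vertebral pattern in mice, read 349, 325, 443 and 381 FPKM in EMB- and 803.5, 569.5, 785 and 842 FPKM in EMB+ cells. Each EMB+ library was above each EMB- library. Its log2 difference of 0.99 (SE 0.25, adjusted p = 0.0017) was the highest of the pool genes, and with median-ratio scaling, which sets the median gene equal between libraries, its adjusted p was 0.050 and just missed the threshold. Of genes with known roles outside the ribosome or in disease, Rpl5 (0.81), Rpl11 (0.72), Rpsa (0.77), also known as the laminin receptor, Rps6 (0.57), the substrate of S6 kinase, Rps19 (0.49) and Rps14 (0.61), changed in blood disorders with failing red cell production, Rpl10 (0.70), Rpl24 (0.69), changed in the Belly spot and tail mouse, and Rpl29 (0.87) all rose on the log2 scale.

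Pool genes that did not pass included Rpl37a, Rpl23, Rps27, Rpl13a, Rps20, Rps21, Rpl27a, Rplp0, Rps12 and Rplp1. Their log2 differences were 0.41 to 0.83, within the range of those that passed, with standard errors of 0.19 to 0.37 and adjusted p between 0.051 and 0.078. Rps27 illustrates them, with 417, 417, 673 and 647 FPKM in EMB- and 766, 568, 888 and 896 FPKM in EMB+ cells, where the EMB+ replicate 2 lay within the EMB- range.

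The count depends on how libraries are scaled. With median-ratio scaling the median of all genes went from 0.30 to -0.03 and that of the members from 0.72 to 0.31, so the members stayed 0.34 above the general median, but 9 rather than 73 of 86 rose, beside 15.3% of all genes. With quantile normalization 17 rose. The count was 46 without replicate 1 and 47 without replicate 2 of the EMB- group, and 48 without replicate 4 of the EMB+ group. It was 83 without replicate 4 of long bone EMB- cells, beside 5567 of all 11767 genes. With the replicate number as a block it was also above 73. For the other left-out libraries, the block and quantile normalization, the shares of all genes are not given here.

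Marker mRNAs of other cell types differed between these groups too. The 10 erythroid genes all fell in EMB+ cells, with a sum of 7320 to 12423 FPKM in vertebral GFP- EMB- and of 122 to 522 FPKM in EMB+ libraries, and haemoglobin took 1.78% to 2.95% and 0.026% to 0.12% of all FPKM. Of 13 leukocyte genes tested, 10 rose, with sums of 180 to 699 FPKM in EMB- and 552 to 3931 FPKM in EMB+ cells, most of it granulocyte genes such as S100a8 and Mpo, while Ptprc had means of 0.27 and 0.87 FPKM. Of 20 cell cycle genes 8 fell. None of the 7 endothelial genes passed the filter, and their summed level was at most 9.85 FPKM. Their part in the ribosomal protein difference was not tested. In bulk samples such as these, fewer cells of a kind and less RNA per cell cannot be told apart.

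In vertebral GFP+ cells, the members' median difference between EMB+ and EMB- cells was close to that of all genes, above or below it depending on the libraries. Of 86 members 11 rose and 0 fell (12.8% higher), against a background of 42.1% of all genes that rose and 7.85% that fell. The members' median log2 difference was 0.28 (1.21-fold), next to 0.32 over all genes, and it ranged from 0.16 (without EMB- replicate 1) to 0.39 (without EMB+ replicate 2) when 1 library was left out. With median-ratio scaling the general median went to 0.01 and the members' median to -0.10, and 0 of 86 passed. In 10 members the groups did not overlap, beside 42.5% of all genes. The count of 11 became 25 without replicate 4 of long bone EMB- cells, which enters through the shared spread, beside 5715 of all 11767 genes. It was 6 without EMB- replicate 1 or 2 or EMB+ replicate 3, and 3 without EMB+ replicate 4. It was 22 under the replicate block, though the numbers did not meet the rule for pairing here. With only the groups compared in the fit it was 21, and with quantile normalization 1. For these settings and the other left-out libraries, the shares of all genes are not given here.

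The large subunit genes that rose in vertebral GFP+ EMB+ cells were Rpl3, Rpl4, Rpl5, Rpl6 and Rpl15, with log2 differences of 0.34 to 0.44. Rpl3, Rpl4, Rpl5 and Rpl6 are among the longest coding sequences of the pool, and the standard errors of these 5 were 0.13 to 0.16. Rpl5 read 39.7, 39.8, 40.6 and 44.9 FPKM in EMB- and 59.1, 48.5, 55.4 and 62.3 FPKM in EMB+ cells. These groups did not overlap, and the difference was 0.44 (SE 0.15, adjusted p = 0.018).

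Among the paralogs, Rpl36al read 103, 87.2, 108 and 115 FPKM in vertebral GFP+ EMB- and 195, 141, 183 and 196 FPKM in EMB+ cells. The groups did not overlap (log2 difference 0.78, SE 0.22, adjusted p = 0.0054), but with median-ratio scaling the adjusted p was 0.155. Rpl22l1 rose by 0.57 with overlapping groups, a call lost with median-ratio scaling (adjusted p = 0.599) and without replicate 1 of the EMB- group (adjusted p = 0.146). Rps27l, a paralog of Rps27 known as a p53 target, rose by 0.49, from 118, 115, 136 and 148 FPKM to 189.4, 155.6, 189.4 and 189.7 FPKM. Rpl7l1, related to a yeast factor of large subunit assembly, rose by 0.58 (adjusted p = 0.00047), and its adjusted p was 0.198 with median-ratio scaling.

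Paired by number, the pool differences in vertebral GFP+ cells were 0.46, -0.05, 0.35 and 0.39 on the log2 scale. In 3 of the pairs all 76 pool genes were higher in the EMB+ library, and in the pair of replicate 2 this held for 32. The 4 general medians were 0.30 to 0.34. The erythroid genes did not pass the test here (0 of 10, with sums of 266 to 980 FPKM in EMB- and 199 to 552 FPKM in EMB+ libraries), and 19 of 20 cell cycle genes rose, with a median of 1.57. The part of these mRNAs in the ribosomal protein values was not tested.

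In long bone, the members' median was above that of all genes, and the number of calls depended on 1 library and on the fit. With all 4 EMB- libraries, 14 of 86 members rose in EMB+ cells and 0 fell (16.3% higher), near the background of 17.5% of all genes that rose and beside 16% that fell. The median log2 difference was 0.43 (1.34-fold), next to 0.08 over all genes. In 4 members the groups did not overlap, beside 12.5% of all genes. Without replicate 4 of the EMB- group, 76 of 86 members rose (88.4%), beside 21.2% of all genes, and the median was 0.71, next to 0.07. Leaving out EMB- replicate 3 gave 7, and EMB- replicate 1 or 2 or EMB+ replicate 1, 3 or 4 gave 8. With quantile normalization 41 rose, with median-ratio scaling 9 and with only the groups compared 4. With libraries of neighbouring title codes as blocks in long bone, 53 rose, but these blocks did not meet the rule for pairing. The shares of all genes under these scalings, fits and other left-out libraries are not given here. The counts alone thus do not place the members against the background.

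Pool genes called with all libraries included Rpl3, Rpl4, Rpl5, Rpl6, Rpl10, Rpl15, Rpl27, Rpl32, Rpl37 and Rps7, with differences of 0.42 to 0.66, and in each of these 10 the groups overlapped. Rpl5, for example, read 43.5, 34.1, 37.2 and 68.4 FPKM in EMB- and 75.5, 64.2, 69.8 and 66.8 FPKM in EMB+ cells. EMB- replicate 4 lay within the EMB+ range, and the log2 difference was 0.63 (SE 0.15, adjusted p = 0.0017). Rpl38 shows the reach of replicate 4, with 518, 403, 382 and 1327 FPKM in EMB- cells against 943, 806, 812 and 807 FPKM in EMB+ cells, so that 3 EMB- libraries lay below and 1 above all EMB+ libraries.

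Erythroid genes moved here as well. All 10 fell in long bone EMB+ cells, with sums of 20300 to 42759 FPKM in EMB- and 244 to 530 FPKM in EMB+ libraries, and haemoglobin was 4.62% to 8.87% of all FPKM in EMB- cells. The 20 cell cycle genes all fell as well, with a median of -2.19 (-2.39 without EMB- replicate 4). Of the 13 leukocyte genes 2 rose and 2 fell, and of 3 skeletal muscle genes tested 2 fell, with sums over the 7 listed of 327 to 809 FPKM in EMB- and 54.1 to 60.5 FPKM in EMB+ libraries. The part of these mRNAs in the ribosomal protein values was not tested.

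**Figure D4:**
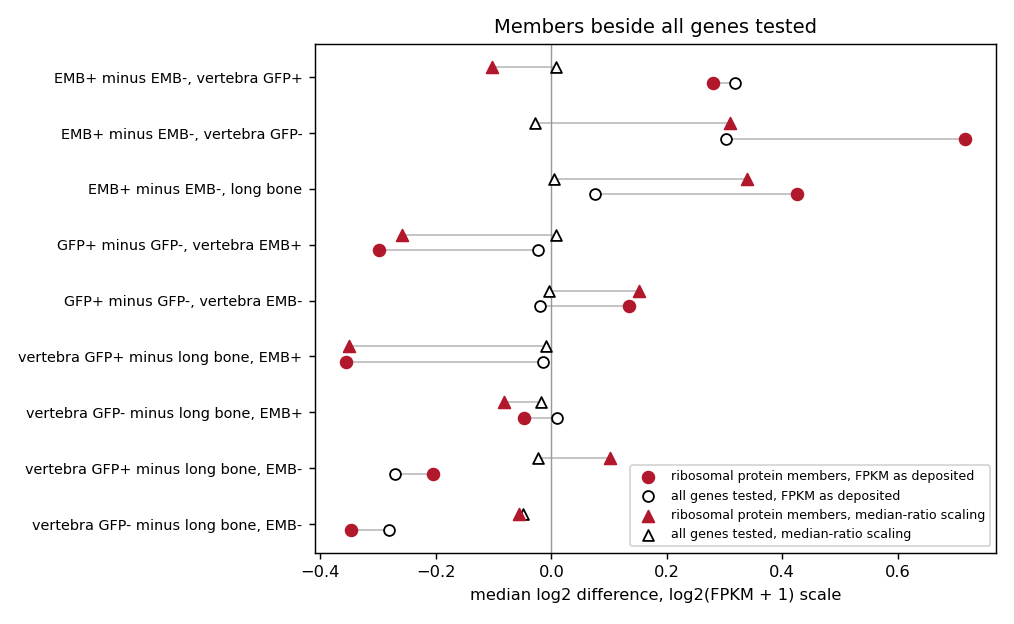
Median log2 difference over the 86 members (red) and over all 11767 genes tested (open) in each comparison, on FPKM as deposited (circles) and with median-ratio scaling (triangles). Members lie above all genes for EMB+ against EMB- in vertebral GFP- and long bone cells under both scalings, and at or below them in vertebral GFP+ cells.

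Whether the EMB difference itself differed between groups was tested gene by gene. Between vertebral GFP+ and GFP- cells, 0 of 86 members passed in either direction by limma, against 3.2% of all genes higher and 1.67% lower, and 2 members had an unadjusted p below 0.05. The median of the members' differences was -0.43, beside 0.00 over all genes. With the replicate number as a block 2 members were lower, Rpl22l1 (-0.68) and Rpl39l (-0.81), and 1 was lower with a pseudocount of 0.1 or with only the groups compared. Between vertebral GFP- and long bone cells, 1 member passed (Rpl36-ps3, named after its values were seen, log2 1.14, adjusted p = 0.041, at or below 1.87 FPKM in all libraries), against 24.7% of genes higher and 5.07% lower. With no filter, quantile normalization or median-ratio scaling 0 members were higher, also without replicate 4 of long bone EMB- cells, and relative to the pool the adjusted p of Rpl36-ps3 was 0.216. These comparisons share groups with those above.

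Genes that work beside the ribosomal proteins were counted from lists. Of all genes tested, 41.7% rose in vertebral GFP- EMB+ cells, 42.1% in vertebral GFP+ and 17.5% in long bone EMB+ cells. Of 51 ribosome biogenesis genes, 42 rose in vertebral GFP- EMB+ cells, 40 in vertebral GFP+ and 26 in long bone EMB+ cells, with medians of 0.71, 0.61 and 0.40 on the log2 scale and 1 gene that fell, in long bone. Ltv1, an assembly factor of the small subunit, rose by 1.77, 1.26 and 0.84. Of 18 translation factors with terminal oligopyrimidine mRNAs, 16, 7 and 5 rose, with medians of 0.62, 0.23 and 0.26, and Npm1, a nucleolar chaperone, rose by 0.91 in vertebral GFP- and 0.75 in long bone cells. In vertebral GFP+ cells, then, the biogenesis genes had a median above that of all genes (0.32), and the oligopyrimidine factors, like the ribosomal proteins, did not. Without replicate 4 of long bone EMB- cells, 30 biogenesis genes (median 0.45) and 10 oligopyrimidine factors (0.40) rose in long bone, beside 2497 of all 11767 genes. Ltv1 and Npm1 rose there by 0.83 and 0.88.

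Initiation factors rose in 18, 17 and 3 of 24 genes in vertebral GFP+, vertebral GFP- and long bone cells, with 2 that fell in long bone. Among 77 mitochondrial ribosomal proteins, 52, 66 and 8 rose, and 4 fell in long bone. Of 39 proteasome subunits, 34, 35 and 1 rose, and 6 fell in long bone. Of all genes, 42.1%, 41.7% and 17.5% rose in the same order, and 16% fell in long bone. With all libraries, each of these lists thus had a smaller share of genes that rose in long bone than all genes. When replicate 4 of long bone EMB- cells was left out, 5 initiation factors, 34 mitochondrial ribosomal proteins and 11 proteasome subunits rose in long bone. Of these lists, 1, 3 and 5 genes fell. Of all 11767 genes, 2497 then rose and 2061 fell. Without that library, mitochondrial ribosomal proteins and proteasome subunits thus had a larger share that rose than all genes. For the initiation factors the share was close to that of all genes. Of ribosomal proteins that the name rule leaves out, Rack1 rose in vertebral GFP- EMB+ cells (0.94) and Fau, at 0.44, did not pass.

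To see which members moved apart from the block, each library was shifted so that its pool median was equal. The pool makes up 76 of the 86 members, so this step holds most members near 0. It also shifts every other gene by the pool's own change. The shares of all genes given beside are thus no measure of the members as a set. Relative to the pool, 1 of 86 members rose with EMB in vertebral GFP- cells, against 2.57% of all genes, and 0 fell, against 19.9%. The 1 was Rpl22l1 (log2 0.53, SE 0.16, adjusted p = 0.015), and the call held in each alternative and without each library. In long bone, Rpl22l1 (0.43, adjusted p = 0.046) and Rpl39l (0.91, adjusted p = 0.027) rose relative to the pool, against 0.926% of all genes, and Rpl36-ps3 fell, against 22.2%. The first was lost without any 1 of 14 of the 24 libraries, and the second with a pseudocount of 0.1 (adjusted p = 0.151). In vertebral GFP+ cells 0 members passed, against 3.93% higher and 5.52% lower, with 1 member at an unadjusted p below 0.05.

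Rpl22l1 can also be set beside Rpl22 itself, whose protein is known in mouse cells to repress the Rpl22l1 mRNA. The log2 ratio of Rpl22l1 to Rpl22 had means of 0.04 ± 0.19 (SD, n = 4) in vertebral GFP- EMB- and 0.59 ± 0.04 in EMB+ cells, of 0.35 ± 0.11 and 0.56 ± 0.09 in vertebral GFP+ cells, and of 0.01 ± 0.24 and 0.54 ± 0.04 in long bone (0.05 ± 0.28, n = 3, in EMB- without replicate 4). The ranges of EMB- and EMB+ cells did not overlap in any of these 3 pairs of groups. Rpl22 rose too in vertebral GFP- cells, with 61.5, 61.0, 116 and 109 FPKM in EMB- and 144, 91.9, 153 and 161.9 FPKM in EMB+ cells, so both levels were higher and the paralog's by more. In 65.6% of its 50-base stretches, Rpl22l1 matches transcripts of other genes.

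The second question is whether the Zic1 lineage mark goes with a difference among vertebral cells. In EMB+ cells, 0 of 86 members passed, with 3 at an unadjusted p below 0.05, against 0.391% of all genes higher and 1.71% lower. The median was -0.30 on the log2 scale, next to -0.02 over all genes. Same-numbered libraries gave pool differences of -0.58, -0.27, -0.18 and -0.16, with at most 1 of 76 pool genes higher in the GFP+ library. These numbers met the rule for pairing, though the labels do not say what same-numbered libraries share. When the number entered the fit as a block, 1 member, Rpl39l, passed. In EMB- cells 0 of 86 passed, with 0 at an unadjusted p below 0.05, against 2.25% higher and 6.22% lower. The members' median was 0.13 and ranged from 0.04 (without GFP- replicate 1) to 0.25 (without GFP+ replicate 1). Same-numbered EMB- libraries gave pool differences of 0.05, 0.36, -0.02 and 0.15, with 56, 75, 27 and 74 of 76 pool genes higher in the GFP+ library. The general medians of these pairs were -0.07, -0.14, -0.07 and -0.07.

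The third question is the site, vertebra against long bone, and here Rpl39l stood apart. Rpl39l is the autosomal paralog (chr16:10170226-10174911, + strand) of the X-linked Rpl39, a small protein at the exit tunnel of the large subunit, and is best known from male germ cells. In long bone EMB+ cells it read 16.8, 12.2, 9.27 and 13.7 FPKM, and in long bone EMB- cells 5.18, 3.74, 3.02 and 5.05 FPKM. Vertebral GFP+ cells read 0.28, 0.45, 0 and 0.11 FPKM with EMB and 0.21, 0.15, 0.071 and 0.42 FPKM without, and vertebral GFP- cells 0.29, 1.02, 1.00 and 1.14 FPKM with EMB and 0, 0, 0 and 0.22 FPKM without. Every long bone library was thus above the highest of 16 vertebral libraries (1.14 FPKM), and 4 vertebral libraries were listed at 0.

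On the log2(FPKM + 1) scale, Rpl39l was lower in vertebral GFP+ than in long bone cells by -3.52 among EMB+ (SE 0.18, adjusted p = 3.2e-13) and -2.10 among EMB- cells (adjusted p = 8.4e-10). Vertebral GFP- cells differed from long bone by -2.91 (adjusted p = 1.2e-11) and -2.30 (adjusted p = 3.5e-10). These 4 calls held in every alternative and without each library. Relative to the pool, Rpl39l was again lower in all 4, by -3.15 and -1.94 in vertebral GFP+ and -2.84 and -2.01 in vertebral GFP- cells, against 2.81%, 13.4%, 2.99% and 7.06% of all genes lower. Both EMB- calls relative to the pool were lost with a pseudocount of 5 (adjusted p = 0.116 and 0.257). Rpl8 was also lower relative to the pool in vertebral GFP+ EMB- cells (-0.48, lost with a pseudocount of 5 at an adjusted p of 0.109), and Rpl36-ps3 was higher in vertebral GFP+ EMB+ cells (0.84), against 6.19% of all genes. Within long bone, EMB+ cells had more by 1.41 (SE 0.18, adjusted p = 1.3e-06), or 3.06 times the mean FPKM of EMB- cells (3.26 times without EMB- replicate 4), and the groups did not overlap. In vertebral GFP- cells the EMB difference was 0.80 at levels of 1.14 FPKM or less.

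Rpl39 did not share the pattern. It read 205.6, 197, 166.4 and 398 FPKM in long bone EMB- cells and up to 387 FPKM in vertebral cells, and in long bone EMB+ cells its mean was 26.4 times that of Rpl39l. None of the 756 stretches of 50 bases in Rpl39l occurred in a transcript of another gene. The paralogs thus divided, since Rpl22l1, Rpl36al and Rps27l were at 63.1 FPKM or more in every library of both sites. Rps27rt, a retrocopy of Rps27, stayed at or below 8.51 FPKM and shares 91.1% of its stretches. Rpl3l, known from heart and skeletal muscle, reached at most 0.21 FPKM, and Rpl10l, known from testis, was listed at 0 in all 24 libraries.

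**Figure D5:**
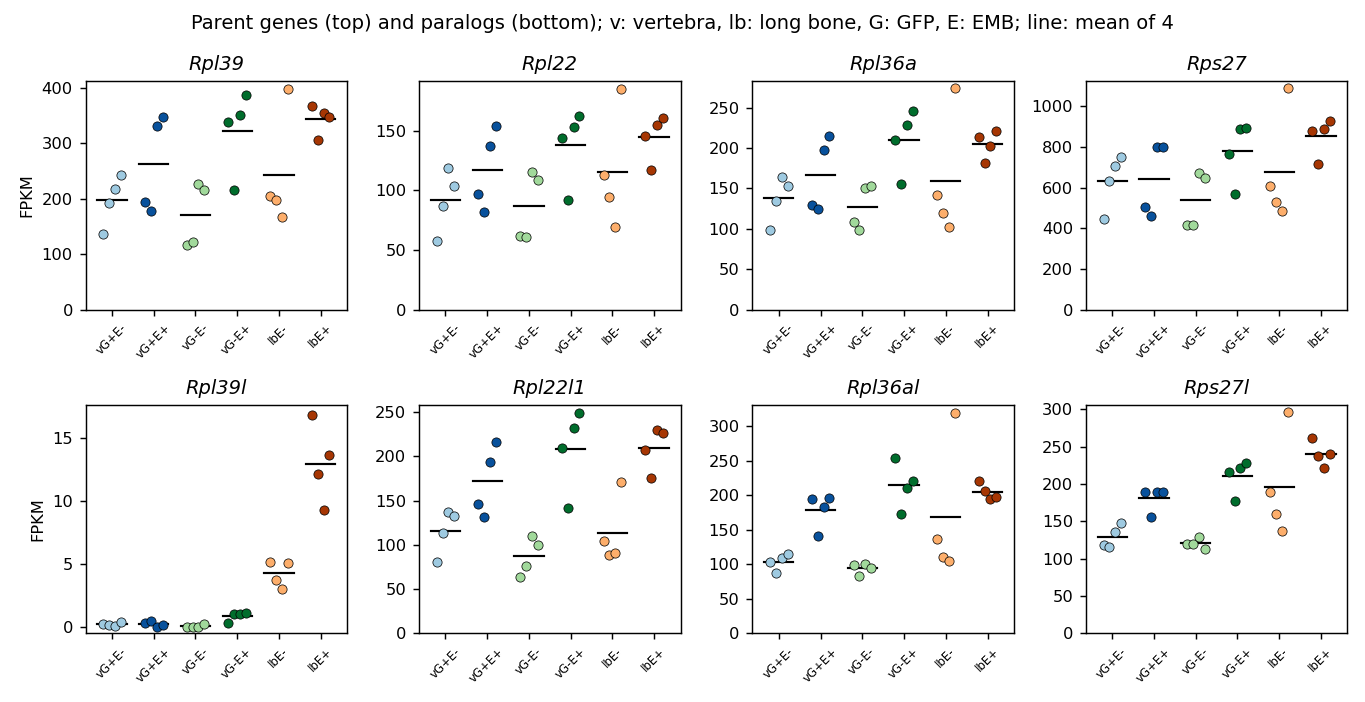
FPKM of Rpl39, Rpl22, Rpl36a and Rps27 (top) and of the paralogs Rpl39l, Rpl22l1, Rpl36al and Rps27l (bottom) in each library by group; lines are means of 4. Rpl39l lies at 3.02 to 16.8 FPKM in long bone and at or below 1.14 FPKM in vertebra, a split that Rpl39 does not show.

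For the other members, the number of differences by site depended on the fit. Here and for the EMB- cells below, shares of all genes are given only for the main fit. Counts under other fits or without a library thus do not place the members against the background. Among EMB+ cells, 0 members were higher and 3 lower in vertebral GFP+ than in long bone cells, against 8.66% and 12.9% of all genes, with a median of -0.36 next to -0.01. Besides Rpl39l these were Rps27rt (-0.89) and Rps23 (-0.51), a protein of the decoding centre, whose adjusted p of 0.046 was 0.139 without replicate 1 of the vertebral group. Without replicate 4 of long bone EMB- cells, which enters through the shared spread, 10 were lower. With only the groups compared 17 were lower, and with quantile normalization 8. In vertebral GFP- against long bone EMB+ cells, Rpl39l was the 1 member called, against 8.49% higher and 10.6% lower, and the median was -0.05 next to 0.01. That median turned positive without vertebral replicate 2 (0.08) and was -0.12 without vertebral replicate 4.

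Among EMB- cells, 4 members were lower in vertebral GFP+ than in long bone cells and 0 higher, beside 40.4% of all genes lower and 7.4% higher. The median was -0.21 next to -0.27 over all genes, and it was 0.06 without replicate 4 of long bone EMB- cells, when 2 were called. Leaving out long bone replicate 3 gave 15, and vertebral replicate 1 or 2 gave 2. Quantile normalization gave 8 higher and 1 lower, median-ratio scaling 1 of each, only the groups compared 1 lower and no filter 2 lower. The shares of all genes under these settings and without single libraries are not given here. The median turned positive with quantile normalization (0.14) and median-ratio scaling (0.10). Rpl8, of the large subunit, read 162.3, 216, 252 and 254 FPKM in vertebral GFP+ EMB- and 291, 312, 223 and 654 FPKM in long bone EMB- cells. The groups overlapped (log2 difference -0.64, adjusted p = 0.035), and without that library the adjusted p was 0.186.

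In vertebral GFP- against long bone EMB- cells, 9 members were lower and 0 higher, beside 40.2% lower and 8.05% higher, with a median of -0.35 next to -0.28. They were Rpl8, Rpl24, Rpl27, Rpl28, Rpl38, Rpl36al, Rpl39l, Rps27l and Rps19bp1, the last encoding a partner of the Rps19 protein. Without replicate 4 of long bone EMB- cells 3 were lower and the median was -0.08. Leaving out long bone replicate 3 gave 23, vertebral replicate 3 gave 15, and vertebral replicate 1 or 2 gave 4. Quantile normalization gave 3 higher and 1 lower with a median of 0.03, and median-ratio scaling 1 of each with a median of -0.06. Only the groups compared gave 1 lower. For these settings and the left-out libraries, the shares of all genes are not given here. Erythroid sums differed between these groups as well (7320 to 12423 FPKM in vertebral and 20300 to 42759 FPKM in long bone EMB- libraries), and their part was not tested.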

How the data were processed

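Gene expression was measured by RNA-seq of sorted cells. Per the labels' protocols, RNA was extracted with an RNeasy kit and libraries were made with SMART-Seq v4 and Nextera XT, which do not mark strand. The authors deposited FPKM values per protein-coding gene. Per the submitters' processing notes, bcl2fastq 2.19, STAR 2.5.2 and Cufflinks 2.1.1 were used with build GRCm38. Without counts the depth is unknown. Of 22053 rows, 46 repeating an identifier, 56 repeating a symbol and 3 with a failed estimate were left out. Libraries were grouped by the cell type label, which 4 titles contradict.

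Values were taken as log2(FPKM + 1), a scale that understates changes of low genes. Genes that reached 1 FPKM in 4 or more libraries were fitted with limma 3.58.1 (R 4.3.3, trend and robust estimation, 6 groups, 18 residual degrees of freedom), 2-sided, with Benjamini-Hochberg adjustment over 11767 genes at 0.05. The scripts were tested on simulated data. The p-values measure only the spread between these samples. The members, lists and tests were chosen with earlier results of these data known. Genes were named as the 3 largest changes past the threshold in each comparison and direction, on the deposited scale and relative to the pool, at a mean FPKM of 5 or more, with a list of members of known role, and others are named as called members. Alternatives were pseudocounts of 0.1 and 5, no filter and a filter at 5 FPKM, quantile and median-ratio scaling, only the groups compared, the replicate number as a block, the 4 contradicted libraries left out, and each library left out. Spreads, list counts and paralog ratios without replicate 4 of long bone EMB- cells were added after the data were seen. Same-numbered vertebral libraries deviated together in 5 of 6 pairs of groups (every correlation above 0.1) but for GFP+ EMB+ with GFP+ EMB- (lowest 0.0971), and long bone numbers did not pair. Long bone blocks were made of libraries with neighbouring codes in their titles, since the long bone EMB+ titles share 1 number. Markers are lists of known genes. Some genes enter the counts and medians but are not reported here by name.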

Additional observations from a re-analysis of the deposited data

Results flagged for a closer look

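In 8 of 108 groups of 4 libraries examined, 1 library lay far from the other 3, where chance gives about 5% of groups. The measure is the gap to the nearest other library as a share of the group's range. In long bone EMB- cells it was replicate 4 for Rpl38 (1327 FPKM, share 0.856), Rpl36al (319 FPKM, 0.853), Rpl39 (398 FPKM, 0.831) and Rps26 (889 FPKM, 0.8291). Rpl38 was also high in replicate 1 of long bone EMB+ cells (943 FPKM, 0.956). Rps27l was low in replicate 2 of vertebral GFP+ EMB+ cells (156 FPKM, 0.989). Rpl39l was low in replicate 1 of vertebral GFP- EMB+ cells (0.29 FPKM, 0.839) and was above 0 in 1 of 4 vertebral GFP- EMB- libraries (0.22 FPKM, 1.0).

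The EMB difference of Rpl36-ps3 was larger in vertebral GFP- than in long bone cells by 1.14 on the log2 scale (adjusted p = 0.041 by limma), at levels of 1.87 FPKM or less. It did not pass with no filter, quantile normalization or median-ratio scaling, without replicate 4 of long bone EMB- cells, or relative to the pool (adjusted p = 0.216).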

How the results depend on the processing

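Calls were counted of 86 members by limma. Quantile normalization gave 1 higher for EMB in vertebral GFP+, 17 in vertebral GFP- and 41 in long bone cells, and median-ratio scaling gave 0, 9 and 9. These scalings move the median of all genes by over 0.1, from 0.32 to 0.01 in vertebral GFP+ and from 0.30 to -0.03 in vertebral GFP- cells with median ratios. Fitting only the groups compared gave 21 for vertebral GFP+ and 4 for long bone cells, and the replicate block gave 22 and 53, and 84 for vertebral GFP- cells. For the site among vertebral GFP+ EMB+ cells, quantile normalization gave 8 lower and only the groups compared 17. For vertebral GFP+ EMB- cells these gave 8 higher and 1 lower, and 1 lower, with 1 higher and 1 lower under median ratios and 2 lower with no filter. For vertebral GFP- cells among EMB+, quantile normalization gave 2 lower and only the groups compared 1 higher. Among EMB-, quantile normalization gave 3 higher and 1 lower, median ratios 1 and 1, and only the groups compared 1 lower. The GFP comparison in EMB+ cells gave 1 lower with the block. For the difference of EMB effects between vertebral groups, a pseudocount of 0.1 and only the groups compared gave 1 lower and the block 2. For vertebral GFP- against long bone, no filter, quantile and median-ratio scaling gave 0 higher and the block 4, with 1 lower for a pseudocount of 5, quantile normalization and the block. The shares of all genes called under each setting are given only where stated above. Without them, these counts do not place the members against the background. The causes were not tested.

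Leaving out 1 library at a time gave 3 to 25 higher for EMB in vertebral GFP+ (3 without EMB+ replicate 4), 46 to 83 in vertebral GFP- (46 without EMB- replicate 1) and 7 to 76 in long bone cells (7 without EMB- replicate 3, 76 without EMB- replicate 4). Site counts lower ran from 1 to 10 and 0 to 1 higher (vertebral GFP+ EMB+), 2 to 15 (GFP+ EMB-, 15 without long bone EMB- replicate 3), 1 to 1 (GFP- EMB+) and 3 to 23 (GFP- EMB-, 23 without the same library). The GFP count in EMB+ cells was 0 to 1 lower. The differences of EMB effects gave 0 to 1 lower between vertebral groups, and 0 to 5 higher and 0 to 1 lower against long bone. No alternative reversed a call. No paired analysis was possible because the long bone EMB+ titles share 1 number, for the site comparisons in EMB+ cells. Unknown depth limits what can be said of members near 0 FPKM, such as Rpl39l in vertebra.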
